A study of Homo sapiens with 15 samples.

Results

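The genes described here are 43 human genes that protect, remodel and restart stalled DNA replication forks, repair broken forks by recombination, or carry the replication checkpoint. They were taken by symbol from 23368 genes in the deposited expression table. The rule itself used no measured value, but the members were chosen with earlier results of these data known. The table holds a value for each of the 43, and each of the 43 was among the 14298 genes tested.

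When a replication fork stalls, remodelling enzymes can turn it back into a reversed fork, and BRCA2 with other recombination mediators helps to shield the exposed DNA from nucleases. The Fanconi anaemia proteins act on forks that meet interstrand crosslinks, and structure-specific nucleases resolve the joints that recombination leaves. Single-stranded DNA at the fork recruits the kinase ATR, which through the adaptor claspin activates the kinase CHK1 and so delays mitosis and late origins. Many of these genes are transcribed around the G1/S transition, where E2F factors act, and p53 is known to lower such transcription through its target CDKN1A, which encodes the kinase inhibitor p21.

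Gene expression was measured by RNA sequencing of U2OS cells, a human bone tumour line with intact p53. Nutlin frees p53 from its ubiquitin ligase MDM2. It was given at a labelled dose of 10, with the unit prefix missing from the labels and micromolar assumed here, and DMSO was its vehicle. The 6 groups were asynchronous cells with Nutlin (3 libraries) or DMSO (3), non-released cells with Nutlin (2) or DMSO (2), and S-phase cells with Nutlin (2) or DMSO (3). Non-released cells were held in a double block with 2 mM thymidine (16 h, then 8 h without it, then 16 h). S-phase cells were washed free of that block and collected 4 h later, and for both kinds of blocked cells Nutlin or DMSO was started 4 h before the time of release. How long asynchronous cells had Nutlin is not stated. State and time since Nutlin was started thus cannot be told apart, in comparisons between states with Nutlin or between Nutlin responses. All cells came from 1 tumour line, and nothing in the labels tells whether replicates were grown separately, so p-values describe the spread between these libraries only. Expression is given on the deposited variance-stabilised scale, which approaches log2 at high read numbers. Each difference was taken on this scale and is given with its standard error (SE). A change was called where the p-value from limma, adjusted by Benjamini and Hochberg over all genes tested, was under 0.05.

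The 15 libraries held 6050828 to 23382502 reads in genes (median 15933503). Of 14 bone and mesenchymal markers, 13 were above the lowest value in every library and TWIST1 was at it in each. Both p53 targets used as a check of the Nutlin label, CDKN1A and MDM2, were higher in each Nutlin library of blocked or released cells than in the DMSO libraries of the same state. In asynchronous cells the library labelled DMSO replicate 3 went against its label, with CDKN1A at 14.10 against 13.51 to 13.59 in the Nutlin libraries and 11.47 and 11.45 in the other DMSO libraries. With all 15 libraries neither gene was called in any state, and with 13 both were called in all 3. The same library held the highest value of 16 of 18 epithelial markers, which summed to 43800 normalised reads there and 12800 to 17800 elsewhere. A second library, S-phase DMSO replicate 2, was the shallowest and had the highest sum of bone and mesenchymal markers, at 92200 normalised reads against 61300 to 80400 elsewhere. Both stood apart from their own groups, with mean correlations of 0.9753 and 0.9773 across genes. Results are therefore also given from the other 13 libraries, a choice made after the data were seen. Asynchronous DMSO replicate 3 was set apart partly by its p53 targets, so p-values without it are no independent test of a p53 response.

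Per kilobase of exon, and averaged over the 6 groups, the members ranged from 23.6 normalised reads for ZRANB3 to 759 for RECQL. The checkpoint adaptor CLSPN (627), the Fanconi protein FANCI (544), the exonuclease EXO1 (516), the ATR activator TOPBP1 (496) and the resection factor RBBP8 (483) followed RECQL in that level. The lowest after ZRANB3 were FANCC (48.5) and RAD9A (49.5). Asynchronous cells with Nutlin had the lowest group mean of 21 of the 43 members, and non-released cells with DMSO had the highest of 16. Differences between groups were moderate: the widest span of group means was 1.15 for CLSPN, and it was 0.16 for PALB2, the narrowest.

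**Figure D1:**
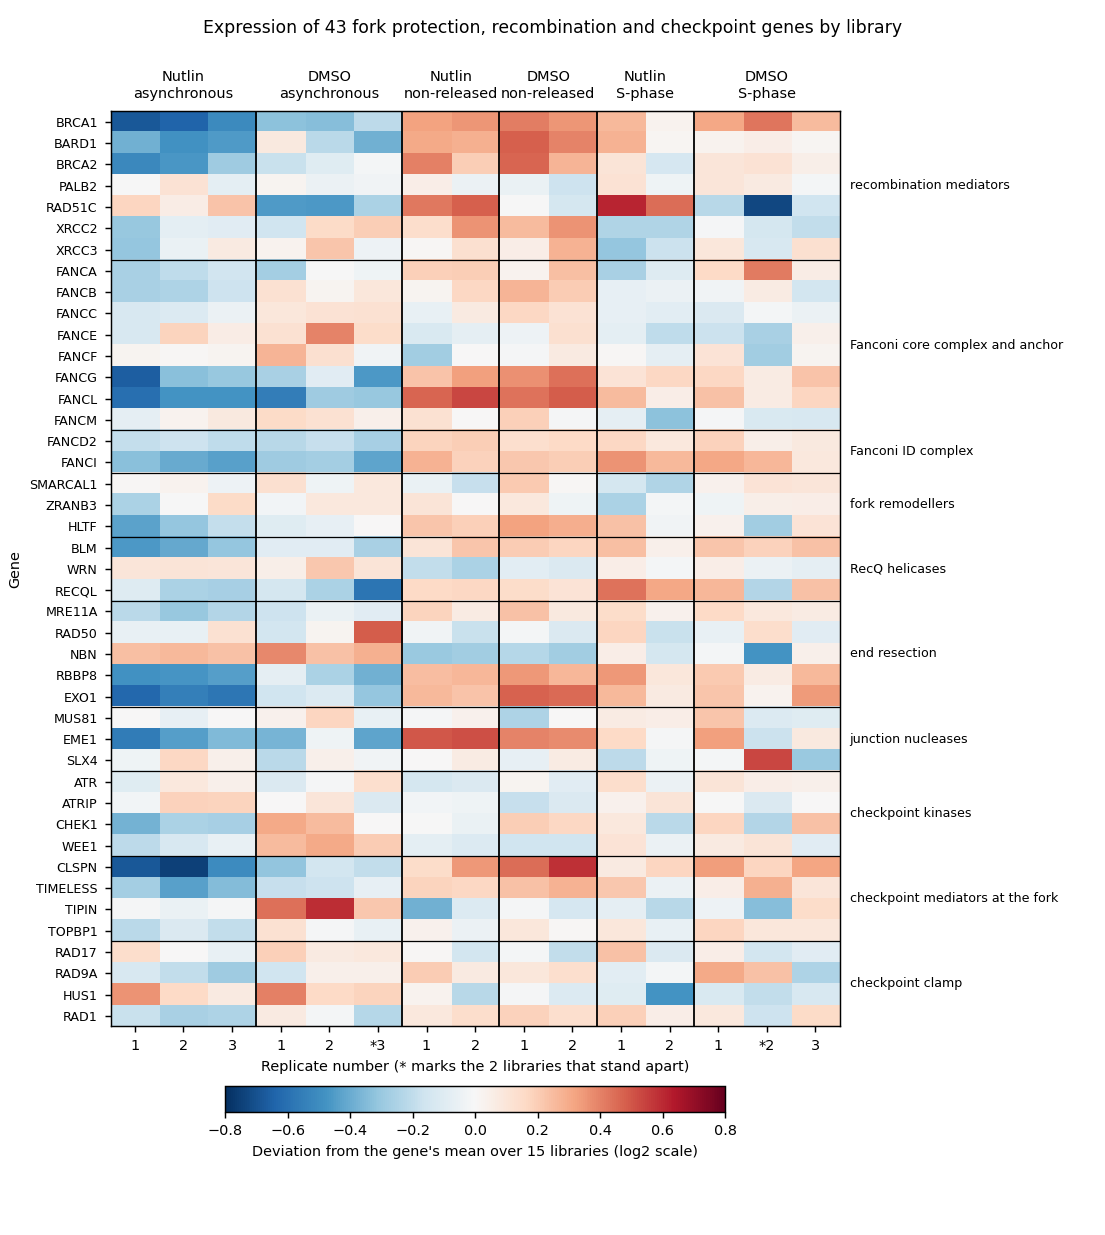
Expression of the 43 genes (rows, by role) in the 15 libraries (columns, by group, with Nutlin left of DMSO in each state), as the deviation from each gene's mean over all libraries on the log2 scale, with an asterisk on the libraries that stand apart. The asynchronous Nutlin libraries hold the lowest values of CLSPN, EXO1 and BRCA1, and RAD51C is higher in the Nutlin than in the DMSO libraries of each of the 3 states.

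Nutlin was compared with DMSO in asynchronous cells to ask what p53 activity does in a cycling population. RAD51C rose, and WEE1, CLSPN and EXO1 fell. These 4 calls were 1 higher and 3 lower of 43, where over all genes tested 2.45% were called, 1.91% higher and 0.546% lower. Of the 43 members 36 had a difference below 0, with a median of -0.16, against a median of -0.02 over all genes. Every Nutlin library lay below every DMSO library for 15 members (34.9%), against 9.64% of genes tested. In a bulk sample a smaller share of cells in a phase and less RNA per cell cannot be told apart.

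RAD51C is a recombination mediator, a partner of XRCC2 and of XRCC3 in complexes that act in strand exchange. Its values were 11.22, 11.11 and 11.28 in asynchronous cells with Nutlin, against 10.60, 10.59 and 10.80 with DMSO. All Nutlin libraries lay above all DMSO libraries, as they did for 8.49% of genes tested. The highest DMSO value was in the library labelled replicate 3. The difference was 0.54 ± 0.13 (SE, n = 3 each, limma, adjusted p = 0.0407), a 1.45-fold change. Without both libraries that stand apart it was 0.61 (adjusted p = 0.000126). Over the 22 alternatives its adjusted p ran from 0.000126 to 0.171, and it stayed under the threshold in 10. The RAD51C promoter is shown because this gene was called with Nutlin and has a promoter window. It is from RefSeq (GRCh38.p14, chr17:58692323-58692622, plus strand, 250 bases before to 50 after the start). It holds no match to the motifs searched below, so it is written without capitals, and a second start lies 29 bases downstream. The p53 search allowed no mismatch, so its result does not show that the window lacks a p53 site.
RAD51C: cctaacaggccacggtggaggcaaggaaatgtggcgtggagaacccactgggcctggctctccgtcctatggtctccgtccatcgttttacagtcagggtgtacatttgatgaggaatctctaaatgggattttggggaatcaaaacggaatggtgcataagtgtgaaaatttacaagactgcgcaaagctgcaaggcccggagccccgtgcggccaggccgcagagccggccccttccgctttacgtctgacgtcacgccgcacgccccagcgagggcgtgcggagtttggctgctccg

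Claspin, the product of CLSPN, brings CHK1 to ATR at the fork. CLSPN stood at 10.98, 10.91 and 11.15 in asynchronous cells with Nutlin, against 11.34, 11.51 and 11.46 with DMSO. Every Nutlin library was below every DMSO library, and the library labelled DMSO replicate 3 lay between the other DMSO libraries. The difference was -0.42 ± 0.09 (SE, n = 3 each, limma, adjusted p = 0.0227). From 13 libraries it was -0.41 (adjusted p = 0.0108, range 0.0108 to 0.133 over 22 alternatives). EXO1, the exonuclease that extends resected ends, stood at 10.38, 10.46 and 10.43 with Nutlin, against 10.85, 10.90 and 10.70 with DMSO. Again the groups did not overlap. The difference for EXO1 was -0.39 ± 0.09 (SE, n = 3 each, limma, adjusted p = 0.0308), and it passed in 10 of 22 alternatives, in which its adjusted p ran from 0.000955 to 0.161.

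The promoters of both genes are printed because, like RAD51C, they were called with Nutlin and have a promoter window. WEE1, also called with Nutlin, has none in the reference used. Both CLSPN and EXO1 fell with Nutlin in asynchronous cells and rose in blocked cells with either treatment. Capitals mark an E2F motif (its forms are spelled out below) and, in CLSPN, 3 CCAAT boxes, the letters that NF-Y binds, which read ATTGG on this strand. The E2F match of CLSPN, GCGGGAAA as printed, is likewise read on the opposite strand. The CLSPN window (chr1:35769929-35770228, minus strand, GRCh38.p14) has an E2F match that begins 5 bases before the start and runs across it, and CCAAT boxes that begin 119, 94 and 46 bases before it. In the EXO1 window printed (chr1:241847954-241848253, plus strand, GRCh38.p14) the E2F match begins 4 bases after the start. Another EXO1 window (chr1:241848481-241848780, plus strand), not printed, holds no match to the motifs searched.
CLSPN: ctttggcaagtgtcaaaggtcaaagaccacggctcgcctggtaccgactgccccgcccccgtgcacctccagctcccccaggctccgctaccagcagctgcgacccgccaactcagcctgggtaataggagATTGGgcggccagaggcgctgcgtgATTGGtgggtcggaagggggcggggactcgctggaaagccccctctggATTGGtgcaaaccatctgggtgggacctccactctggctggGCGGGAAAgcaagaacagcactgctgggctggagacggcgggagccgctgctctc
EXO1: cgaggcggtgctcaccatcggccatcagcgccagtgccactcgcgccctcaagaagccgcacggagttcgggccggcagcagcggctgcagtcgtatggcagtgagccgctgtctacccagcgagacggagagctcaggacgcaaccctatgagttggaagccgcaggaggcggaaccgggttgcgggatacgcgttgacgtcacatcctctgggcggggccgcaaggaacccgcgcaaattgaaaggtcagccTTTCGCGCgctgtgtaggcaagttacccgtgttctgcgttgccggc

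WEE1 encodes the kinase that holds CDK1 and CDK2 inactive. It stood at 10.05, 10.13 and 10.20 in asynchronous cells with Nutlin, against 10.51, 10.56 and 10.46 with DMSO, again without overlap. The difference was -0.38 ± 0.08 (SE, n = 3 each, limma, adjusted p = 0.0156), and it passed in 18 of 22 alternatives (adjusted p from 0.00445 to 0.102). The largest negative difference in the list belonged to CHEK1, which encodes CHK1 itself. CHEK1 stood at 9.57, 9.69 and 9.68 with Nutlin, against 10.25, 10.20 and 9.95 with DMSO, a difference of -0.48 ± 0.12 that missed the threshold (SE, n = 3 each, limma, adjusted p = 0.0613). Its DMSO value nearest to the Nutlin libraries was that of replicate 3, and from 13 libraries the difference was -0.58 (adjusted p = 0.000658, range 0.000658 to 0.265 over 22 alternatives). TIPIN, whose product pairs with that of TIMELESS to hold the fork together, stood at 9.08, 9.04 and 9.08 with Nutlin, against 9.53, 9.68 and 9.31 with DMSO, and was not called (-0.44 ± 0.13, SE, n = 3 each, limma, adjusted p = 0.112).

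**Figure D2:**
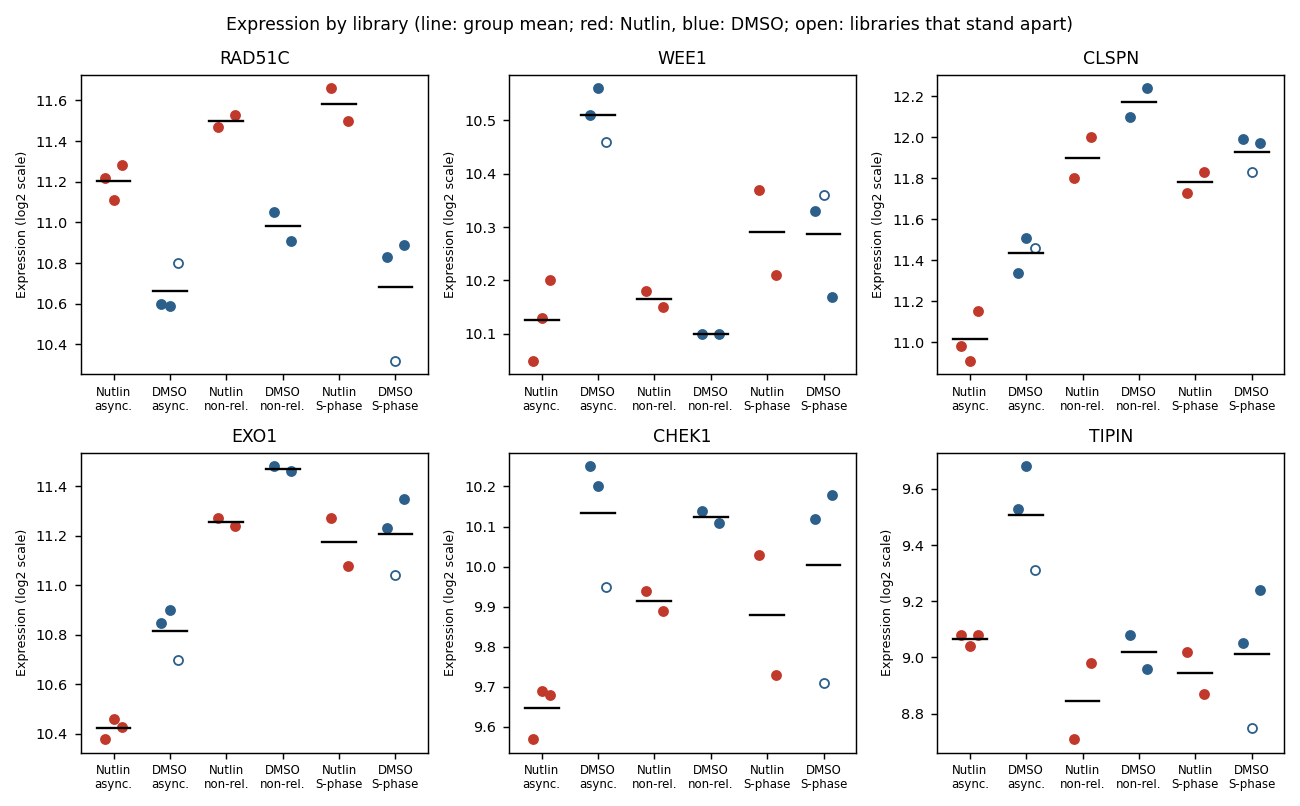
Expression (log2 scale, a separate axis for each gene) of RAD51C, WEE1, CLSPN, EXO1, CHEK1 and TIPIN in each library, with Nutlin (red) left of DMSO (blue) in each state, lines at group means and open points for the libraries that stand apart. RAD51C is higher with Nutlin in each of the 3 states, and the difference for WEE1 is -0.38 in asynchronous, 0.07 in non-released and 0.00 in S-phase cells.

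By role, 0 of 8 genes of the Fanconi core complex and its anchor were called, though all 8 had a negative difference, from -0.30 for FANCB to -0.09 for FANCM. The 5 recombination mediators other than RAD51C and PALB2 lay between -0.32 (BRCA1 and BRCA2) and -0.17 (XRCC3), and 0 of them was called. None of the 4 clamp genes, the 3 remodellers, the 3 RecQ helicases or the 3 junction nucleases passed. Over all genes 2.45% were called, so a count of 0 in so few genes does not set a role apart. From 13 libraries 10 members were called lower and 1 higher, where 6.21% of all genes were called (3.75% higher, 2.46% lower). The added genes were BRCA1 (-0.27), BARD1 (-0.37), BLM (-0.30), RBBP8 (-0.30), CHEK1, TIPIN (-0.54) and RAD1 (-0.25). The count of 4 depended on single libraries. It was 0 without DMSO replicate 2, Nutlin replicate 1 or Nutlin replicate 2 of the asynchronous cells, and 8 without S-phase DMSO replicate 2. It was 2 without any 1 of asynchronous DMSO replicate 1, asynchronous Nutlin replicate 3 or the 4 non-released libraries. The share of all genes called is not given for these fits, so the shifts cannot be read as particular to the members.

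In the same comparison the 26 genes listed as G1/S genes under E2F control had a median difference of -0.44, against -0.02 over all genes. Of them 14 fell and 1 rose, where 0.546% of all genes were called lower and 1.91% higher. With Nutlin 0 of the 26 were called in non-released cells (0.916% of all genes). In S-phase cells 1 rose and 0 fell (2.0% of all genes called). The part of these genes in the change of the members was not tested.

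In non-released cells 0 members were called with Nutlin, where 0.916% of all genes were (0.874% higher, 0.042% lower). At an unadjusted p under 0.05 there were 3 (6.98% of members, against 6.67% of all genes). Voom on recovered reads called 0 members, where 1.59% of all genes were called. RAD51C had 11.47 and 11.53 with Nutlin, against 11.05 and 10.91 with DMSO. The groups did not overlap, but 20.0% of genes tested lay wholly higher with Nutlin there. The difference was 0.52 ± 0.16 (SE, n = 2 each, limma, adjusted p = 0.215). From 13 libraries, which hold both groups whole, the difference was the same and the adjusted p was 0.00165 (range 0.00165 to 1.0 over 22 alternatives). That made 1 member called from 13 libraries, where 3.21% of all genes were (2.79% higher, 0.42% lower). CLSPN had 11.80 and 12.00 with Nutlin, against 12.10 and 12.24 with DMSO (-0.27 ± 0.11, not called). The median over the members was -0.05.

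In S-phase cells RAD51C rose and was the only member called, 1 of 43, where 2.0% of all genes were called and 1.84% were higher. Its values were 11.66 and 11.50 with Nutlin, against 10.83, 10.32 and 10.89 with DMSO. The lowest belonged to the shallow library, DMSO replicate 2, and the groups were separate with or without it. With all libraries 13.8% of genes tested lay wholly higher with Nutlin. The RAD51C difference was 0.90 ± 0.14 (SE, n = 2 and 3, limma, adjusted p = 0.00348), a 1.87-fold change, and 0.72 from 13 libraries (adjusted p = 7.15e-05). From 13 libraries RAD51C was again the 1 member called, and 3.94% of all genes were called (3.37% higher, 0.567% lower). The call was lost without Nutlin replicate 1 (0.82, adjusted p = 0.0592) and when only the 2 groups were fitted (0.90, adjusted p = 0.129, the highest of 22 alternatives). WEE1 averaged 10.29 ± 0.11 with Nutlin and 10.29 ± 0.10 with DMSO there (SD, n = 2 and 3). FANCA, a core complex scaffold, had the most negative difference, -0.40 ± 0.12, and was not called (SE, n = 2 and 3, limma, adjusted p = 0.126).

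Whether the Nutlin response differed between states was tested directly, though state is tied to the time since Nutlin was started. For each of the 3 differences between responses limma called 0 of 43 members and 0.0% of all genes, and so did voom. From 13 libraries 0 members were called too, against 0.021% of all genes (each with a lower response in non-released than in asynchronous cells) and 0.0% in the other two differences. At an unadjusted p under 0.05 there was 1 member for non-released against asynchronous cells, where 1.08% of all genes passed. There were 5 for S-phase against asynchronous cells (5.5% of all genes) and 1 for S-phase against non-released cells (2.33% of members, against 2.25% of all genes). WEE1 had the largest such difference in the first of these, with a response more positive by 0.45 ± 0.12 in non-released than in asynchronous cells (SE, limma, adjusted p = 1.0). The RAD51C response differed by 0.36 between S-phase and asynchronous cells without passing. The fall of WEE1, CLSPN and EXO1 is thus not shown to be limited to asynchronous cells.

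**Figure D3:**
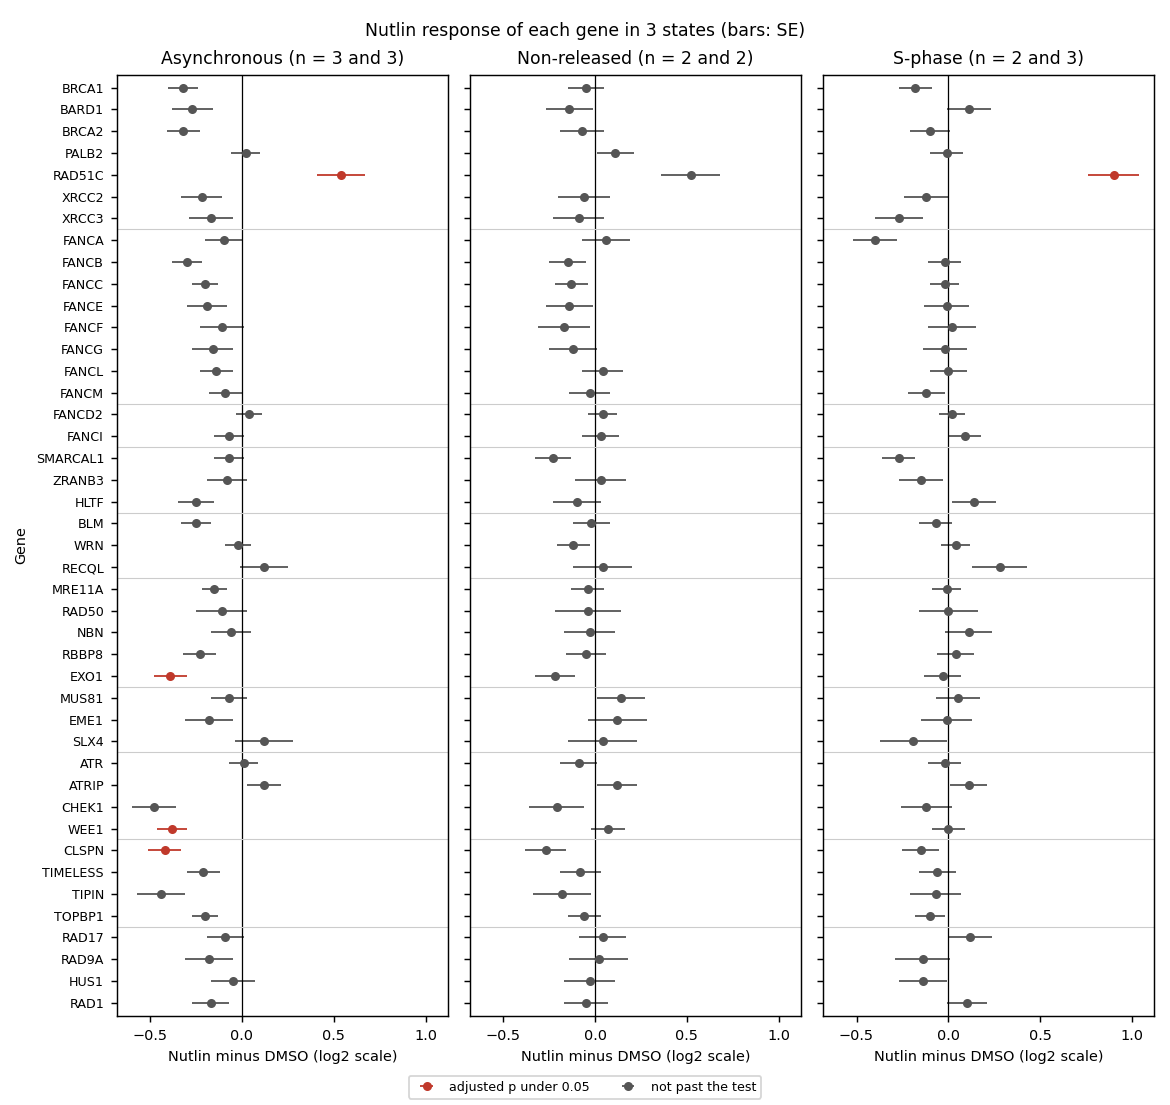
Difference between Nutlin and DMSO (log2 scale, points with SE bars) for each of the 43 genes in the 3 states (asynchronous, then non-released, then S-phase), red where the adjusted p was under 0.05. RAD51C lies to the right in all 3 panels (0.54, 0.52 and 0.90), and 36 of 43 genes lie left of 0 in asynchronous cells.

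The thymidine block was compared with asynchronous growth in cells with Nutlin and in cells with DMSO, which share no library. Both comparisons came from the same fit and use the same spread for each gene, so their lists of calls are not independent. With Nutlin 19 members rose and 2 fell in non-released cells relative to asynchronous cells, where 34.5% of all genes were called (17.3% higher, 17.2% lower). With DMSO 16 rose and 3 fell, where 33.9% of all genes were called (16.9% higher, 17% lower). The members' median difference was 0.30 with Nutlin and 0.14 with DMSO, and over all genes 0.00 and -0.01. The lists of risen members had 15 genes in common, 78.9% of the Nutlin list and 93.8% of the DMSO list. The matching overlap over all genes was not computed, so these shares cannot be read as particular to the members. The Nutlin comparison uses the same asynchronous Nutlin libraries in which 21 members had their lowest mean. Time since Nutlin was started may also differ between those states. From 13 libraries 23 members rose and 2 fell with Nutlin (58.1% called), where 49.9% of all genes were called (25.2% higher, 24.6% lower). With DMSO 18 rose and 5 fell from 13 libraries (53.5% called), where 47.8% of all genes were (23.5% higher, 24.2% lower).

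FANCL, the ubiquitin ligase of the Fanconi core complex, rose most. With Nutlin it stood at 9.98 and 10.05 in non-released cells, against 8.91, 9.04 and 9.04 in asynchronous cells, a difference of 1.02 ± 0.10 or 2.03-fold (SE, n = 2 and 3, limma, adjusted p = 1.9e-05). With DMSO it stood at 9.95 and 10.00, against 8.96, 9.23 and 9.21 (0.85 ± 0.10, SE, limma, adjusted p = 6.68e-05). Neither pair of groups overlapped, where 35.5% of genes tested lay wholly higher in non-released cells with Nutlin and 28.7% with DMSO. FANCG, another subunit of the core complex, rose by 0.71 ± 0.12 with Nutlin and 0.67 ± 0.12 with DMSO, whereas FANCC, FANCE, FANCF and FANCM did not pass in either. The substrates of FANCL, FANCD2 and FANCI, both rose with each treatment. FANCI stood at 12.27 and 12.18 in non-released cells with Nutlin, against 11.66, 11.59 and 11.56 in asynchronous cells. With DMSO it had 12.21 and 12.19 in non-released cells, against 11.71, 11.72 and 11.57 in asynchronous cells. FANCD2 had 11.29 and 11.31 in non-released cells with Nutlin, against 10.92, 10.95 and 10.91 in asynchronous cells, and it rose by 0.37 ± 0.07 with either treatment.

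Among the mediators BRCA1, which with BARD1 forms a ubiquitin ligase that favours recombination, had 11.40 and 11.43 in non-released cells with Nutlin, against 10.40, 10.44 and 10.57 in asynchronous cells. With DMSO BRCA1 had 11.49 and 11.43 in non-released cells, against 10.75, 10.74 and 10.87 in asynchronous cells. The groups did not overlap in either, and the differences were 0.94 ± 0.09 with Nutlin and 0.68 ± 0.09 with DMSO (limma, adjusted p = 1.43e-05 and 0.000142). BARD1 rose by 0.74 and 0.61, and BRCA2, a central mediator of recombination, by 0.72 and 0.47 with Nutlin and DMSO. XRCC2 rose with Nutlin (0.40). PALB2, which joins BRCA1 to BRCA2, did not pass in either (-0.01 and -0.10).

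CLSPN rose by 0.88 ± 0.10 with Nutlin and 0.73 ± 0.10 with DMSO (limma, adjusted p = 4.06e-05 and 0.000153) and its values of 12.10 and 12.24 in non-released cells with DMSO were the highest of the 15 libraries. EXO1 had 11.27 and 11.24 in non-released cells with Nutlin and 11.48 and 11.46 with DMSO, above every asynchronous library, with differences of 0.83 ± 0.10 and 0.66 ± 0.10. RBBP8, which starts resection with the MRE11 complex, rose by 0.72 ± 0.10 with Nutlin and 0.54 ± 0.10 with DMSO. With Nutlin RBBP8 had 11.47 and 11.49 in non-released cells, against 10.74, 10.75 and 10.78 in asynchronous cells. EME1, the partner of the nuclease MUS81, had 9.54 and 9.56 with Nutlin in non-released cells, against 8.48, 8.60 and 8.69 in asynchronous cells. The EME1 differences were 0.96 ± 0.14 with Nutlin and 0.66 ± 0.14 with DMSO, while those of MUS81 itself were 0.03 and -0.17 and those of the scaffold gene SLX4 -0.02 and 0.06, none of them called. The fork-reversing enzyme HLTF had 10.64 and 10.61 with Nutlin in non-released cells, against 9.99, 10.11 and 10.23 in asynchronous cells. With DMSO HLTF had 10.74 and 10.71, against 10.32, 10.35 and 10.42. It rose by 0.51 ± 0.12 and 0.36 ± 0.12, whereas SMARCAL1 and ZRANB3, which have the same activity, did not pass (-0.12 to 0.09). BLM, the helicase that dissolves double Holliday junctions, rose by 0.56 and 0.33.

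Subunits of 1 complex did not move together in the MRE11 complex, which senses broken ends. MRE11A rose by 0.37 with Nutlin and 0.26 with DMSO, while RAD50 was not called. NBN fell to 11.26 and 11.28 in non-released cells with Nutlin, against 11.80, 11.82 and 11.79 in asynchronous cells. With DMSO NBN had 11.33 and 11.28 in non-released cells, against 11.94, 11.79 and 11.84 in asynchronous cells. The differences for NBN were -0.53 ± 0.13 and -0.56 ± 0.13 (limma, adjusted p = 0.00588 and 0.00452). TIMELESS rose with both treatments (0.53 and 0.39), but its partner TIPIN fell with DMSO (-0.48 ± 0.14) and was not called with Nutlin (-0.22 ± 0.14). TIPIN lost its DMSO call without asynchronous DMSO replicate 2 (adjusted p = 0.0738) or without either non-released DMSO library (adjusted p = 0.0616 and 0.144).

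Of the 4 checkpoint kinase genes 0 rose with either treatment, where 17.3% of all genes were called higher with Nutlin and 16.9% with DMSO. A count of 0 in so few genes does not set the kinases apart. ATR and its partner ATRIP were not called with either treatment (-0.14 to -0.04), nor was CHEK1 (0.26 with Nutlin and -0.01 with DMSO). WEE1 fell with DMSO, to 10.10 and 10.10 in non-released cells, against 10.51, 10.56 and 10.46 in asynchronous cells (-0.41 ± 0.09, SE, n = 2 and 3, limma, adjusted p = 0.0027). With Nutlin WEE1 had 10.18 and 10.15 in non-released cells, against 10.05, 10.13 and 10.20 in asynchronous cells (0.04 ± 0.09, not called), and those groups overlapped. The difference between these 2 differences is the same contrast as the one tested above between Nutlin responses and was not called. Of the clamp genes RAD1 rose with Nutlin (0.34) and the others were not called. WRN, a helicase and exonuclease of the RecQ family, fell with Nutlin, at 9.49 and 9.43 in non-released cells, against 9.78, 9.79 and 9.78 in asynchronous cells (-0.32 ± 0.08, SE, n = 2 and 3, limma, adjusted p = 0.00805). The WRN call was lost without Nutlin non-released replicate 2 (adjusted p = 0.0821).

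S-phase cells were set against asynchronous cells in the same way. With Nutlin 17 members rose and HUS1 fell, where 24.0% of all genes were called (13.4% higher, 10.6% lower). With DMSO 12 rose and 5 fell, where 27.7% of all genes were called (14.1% higher, 13.6% lower). The 11 risen in common were 64.7% of the Nutlin list and 91.7% of the DMSO list, again without a matching share over all genes. They included BRCA1 (0.76 ± 0.09 with Nutlin, 0.62 ± 0.08 with DMSO), FANCI (0.70 ± 0.09 and 0.55 ± 0.08), CLSPN (0.77 ± 0.10 and 0.49 ± 0.09), EXO1 (0.75 ± 0.10 and 0.39 ± 0.09), RBBP8 (0.68 ± 0.10 and 0.41 ± 0.09) and FANCL (0.67 ± 0.10 and 0.54 ± 0.09). BARD1, BRCA2, EME1, HLTF, MRE11A and RAD1 passed with Nutlin only and FANCA with DMSO only, which does not show that these genes differ between treatments. With only the groups compared in the fit, the DMSO counts were 4 and 0, and without Nutlin S-phase replicate 1 the Nutlin counts were 8 and 1. Shares of all genes called are not given for these fits, so these shifts cannot be read as particular to the members. From 13 libraries 20 members rose and 2 fell with Nutlin (51.2% called), where 41.0% of all genes were called (21.7% higher, 19.3% lower). With DMSO 13 rose and 5 fell from 13 libraries (41.9% called), where 31.6% of all genes were (15.6% higher, 16.0% lower).

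RECQL, a RecQ helicase that restarts reversed forks, had 11.89 and 11.76 in S-phase cells with Nutlin, against 11.35, 11.20 and 11.19 in asynchronous cells (0.58 ± 0.15, SE, n = 2 and 3, limma, adjusted p = 0.0119). With DMSO it had 11.72, 11.22 and 11.69 in S-phase cells, against 11.31, 11.20 and 10.87 in asynchronous cells, and the low S-phase value, in the shallow library, brought the groups into overlap (0.42 ± 0.13, adjusted p = 0.0315). HUS1, a subunit of the checkpoint clamp, fell with both treatments. It had 9.19 and 8.81 in S-phase cells with Nutlin, against 9.65, 9.45 and 9.36 in asynchronous cells (-0.49 ± 0.13, limma, adjusted p = 0.0151). With DMSO HUS1 had 9.17, 9.09 and 9.16, against 9.69, 9.45 and 9.47 (-0.40 ± 0.12, limma, adjusted p = 0.0218). The HUS1 calls were lost without Nutlin S-phase replicate 2 (-0.30, adjusted p = 0.192) or asynchronous Nutlin replicate 1 (0.0564) in the first case, and without asynchronous DMSO replicate 1 (0.0821) or with only the groups compared (0.0692) in the second. FANCE, a core complex subunit, had 9.33, 9.24 and 9.54 in S-phase cells with DMSO, against 9.62, 9.90 and 9.65 in asynchronous cells (-0.36 ± 0.11, limma, adjusted p = 0.0285). The FANCE call was lost without asynchronous DMSO replicate 2 (adjusted p = 0.121), S-phase DMSO replicate 1 (0.0793) or S-phase DMSO replicate 2 (0.0819), with no filter on low values (0.0548) and with only the groups compared (0.127). NBN fell with DMSO (-0.45), by a value that rests on the shallow library: NBN had 11.54, 11.08 and 11.60 in S-phase cells, and without replicate 2 the difference was -0.29, which also passed the threshold. TIPIN (-0.49) and WEE1 (-0.22) also fell with DMSO, and the WEE1 call held in 10 of 22 alternatives. With only the groups compared the calls of NBN (0.102) and TIPIN (0.0981) were lost, and that of TIPIN also without asynchronous DMSO replicate 2 (0.0604).

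Between S-phase and non-released cells no member was called with Nutlin or with DMSO, where 2.43% of all genes were called with Nutlin (1.6% higher, 0.832% lower) and 6.99% with DMSO (4.11% higher, 2.89% lower). At an unadjusted p under 0.05 there were 8 members with Nutlin, where 15.8% of all genes passed, and 10 with DMSO, where 21.1% did. Voom called 0 members with Nutlin and 2 with DMSO (4.65%, against 8.42% of all genes). The median difference was -0.06 in both. From 13 libraries 4 members were called lower with Nutlin (XRCC2, FANCA, FANCL and EME1), where 10.8% of all genes were called (6.3% higher, 4.48% lower). With DMSO 3 were called lower (BARD1, XRCC2 and FANCB) and NBN higher, where 14.2% of all genes were called (7.9% higher, 6.28% lower).

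**Figure D4:**
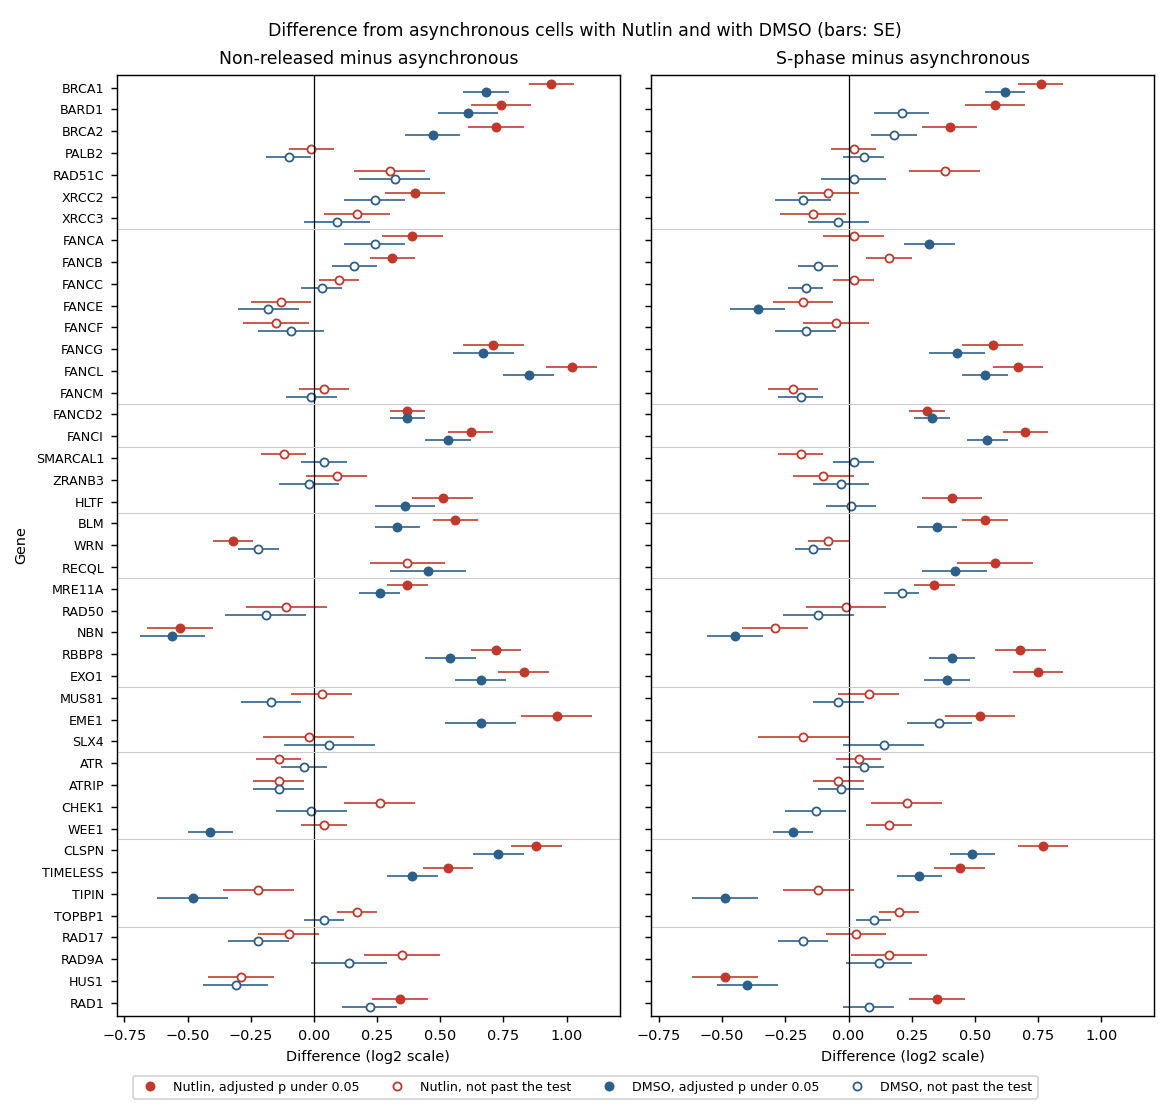
Difference of non-released and of S-phase cells from asynchronous cells (log2 scale, points with SE bars) for each of the 43 genes with Nutlin (red, upper point) and with DMSO (blue, lower point), filled where the adjusted p was under 0.05. FANCL reaches 1.02 in non-released cells with Nutlin, and NBN, TIPIN, HUS1 and WEE1 are among the few genes with called negative differences.

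Other genes of the pathway were described from a list of 63 genes in the table, 59 of them tested. With Nutlin in asynchronous cells 0 rose and 2 fell (3.39% of 59, against 2.45% of all genes called), of which 1 was BRIP1, the helicase partner of BRCA1 (10.85 against 11.21, -0.36 ± 0.08, limma, adjusted p = 0.0321). In non-released against asynchronous cells 22 rose and 3 fell with Nutlin (42.4% of 59 called, against 34.5% of all genes), and 18 rose and 3 fell with DMSO (35.6%, against 33.9%). BRIP1 rose by 1.20 with Nutlin and 0.86 with DMSO, and RMI2, a subunit of the complex of BLM, by 1.22 and 0.99. In S-phase against asynchronous cells 15 rose and 3 fell with Nutlin (30.5% called, against 24.0% of all genes). With DMSO 12 rose and 2 fell (23.7%), a smaller share than the 27.7% of all genes.

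RefSeq promoter windows of 300 bases were not found for FANCI, WRN, NBN, WEE1 and HUS1, and were matched for the other 38 of the 43 members. An E2F motif (TTTCCCGC, TTTCGCGC, TTTGCCGC or TTTGGCGC, on either strand) was present for 9 of them: XRCC2, FANCA, FANCC, FANCD2, HLTF, EXO1, CLSPN, TIPIN and TOPBP1. That is 23.7% of members, against 6.48% of 9763 genes tested that have a window and 3.99% of all 27305 genes with one. Among members that rose in non-released cells with either treatment the share was 31.6% (6 of 19), and among the others 15.8% (3 of 19). The CCAAT box was present for 52.6% of members and 43.2% of genes tested, and the CHR element (TTTGAA or TTCGAA) for 10.5% of members and 15.9% of genes tested. The p53 consensus, searched with no mismatch allowed, was matched for 0 of 38 members and 0.041% of genes tested. At so low a share a count of 0 does not show that members lack p53 sites. A match describes the letters of a window and shows no binding.

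Some members share exonic sequence with neighbouring genes. Whether counting used strand, and how it treated reads in shared stretches, is not stated. Reads of the neighbour may thus be included, or reads of the member left out. In GENCODE the shared part was 79.7% of the exonic length of RAD50 (with AC116366.3), 27.9% of ATRIP (with TREX1) and 21.0% of TIPIN (with a ribosomal protein pseudogene). These neighbours lie on the same strand, so strand would not separate them. On the opposite strand it was 76.7% of XRCC3 (with KLC1), 41.5% of RECQL (with PYROXD1) and 23.6% of FANCA (with ZNF276). It was also 18.7% of FANCL (with VRK2), 16.4% of EME1 (with LRRC59) and 16.4% of ATR (with a processed pseudogene). RAD51C, EXO1, NBN and HUS1 overlapped no annotated gene.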

How the data were processed

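RNA was sequenced from 15 libraries of U2OS cells as single reads, and per the submitters' processing notes the tools included TopHat 0.9 with HTSeq, CASAVA 1.8.2 and, for DESeq2, version 1.10.1, on the hg19 build. The deposited table holds log2-scale variance-stabilised values that the authors computed for 23368 genes, with a lowest value of 4.859 for 0 reads. Undoing that transformation gave whole reads (within 0.05) for 100.0% of values under 1000 reads in 14 libraries and for 99.61% in S-phase DMSO replicate 3. Exon lengths and gene overlaps are from GENCODE, and no coordinate was carried between builds.

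The deposited values were fitted in limma 3.58.1 (R 4.3.3). All 15 libraries entered 1 model that gave each group its own mean, with a trended prior. The fit was made for the 14298 genes at least 1 unit above the lowest value in 2 or more libraries, with Benjamini-Hochberg adjustment. Per-library values went to members called with Nutlin (up to 8 a comparison), to the 5 with the smallest adjusted p in each direction of each comparison between states, and to the member of each role with the widest span of group means. Of the other pathway genes called with Nutlin, BRIP1 was named and 1 result is not reported here. TIPIN in asynchronous cells with Nutlin, BRIP1 and RMI2 between states, and members named as missing the threshold were chosen after their values were seen. Alternatives were voom on recovered reads, other filters, median centring, fits of only the groups compared, a replicate block and leaving out each library. The members and lists were chosen with earlier results of these data known. The p53 motif search and the 13-library fits were added after the data were seen. No 2 libraries were identical.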

Additional observations from a re-analysis of the deposited data

How the results depend on the processing

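Of 792 values of 36 results for single genes under 22 alternatives, 729 kept their call and direction, 63 missed the threshold and 0 reversed. All 36 were calls of the main fit. Most fits that left out 1 library took none from the groups compared, so the difference there could not change. Fitting only the groups compared ended 10 of the 36 calls, and the replicate block and the 13-library fits ended 0. Same-number correlations of deviations were 0.313, 0.136 and 0.074 in asynchronous, 0.325 and 0.325 in non-released, and 0.341 and 0.351 in S-phase cells. Correlations between different numbers ran from -0.351 to 0.27. Non-released groups hold 2 libraries each, whose deviations mirror each other, so their values are equal by construction. The 2 S-phase Nutlin libraries mirror each other too. Their different-number values of -0.341 and -0.351 only reverse the sign of same-number values, so part of the contrast is by construction. The lowest same-number correlation, 0.074, was that of asynchronous replicate 3, whose DMSO library went against its label. As this was under 0.1 and nothing in the labels ties the numbers, the main fit took samples to share only a number. Whether same-number libraries belong together is not settled. Members called in S-phase against non-released cells with DMSO numbered 2 under the replicate block. That count, 0 with all libraries, was also 2 with voom, 2 with no filter on low values, 1 with the stricter filter, 4 from 13 libraries, and 0 to 2 without 1 library. Members called with Nutlin in asynchronous cells, 4 in all, numbered 1 with only the groups compared, 11 from 13 libraries and 0 to 8 without 1 library. In non-released cells the count with Nutlin, 0, was 1 with only the groups compared, 1 from 13 libraries and 0 to 1 without 1 library (1 without S-phase DMSO replicate 2). In S-phase cells the count with Nutlin, 1, was 0 with only the groups compared and 0 to 1 without 1 library. In S-phase against asynchronous cells the DMSO count of 17 was 4 with only the groups compared, and the Nutlin count of 18 was at its lowest, 9, without Nutlin S-phase replicate 1 and at its highest, 20, without another library. In S-phase against non-released cells with Nutlin, 0 became 4 from 13 libraries and 0 to 1 without 1 library (1 without asynchronous DMSO replicate 1). Shares of all genes called are not given for most of these alternatives, so the shifts cannot be read as particular to the members. The cause of these shifts was not tested. Groups of 2 or 3 libraries and a depth as low as 6050828 reads limit how small a difference could be called.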
